A study of Mus musculus with 6 samples.

Results

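The genes described here encode the enzymes that make sterols and fatty acids, the proteins that switch those enzymes on, and a pair of pumps that carry sterols out of the cell. They were followed in mouse CD4 T cells that had or lacked the miR-17-92 cluster of microRNAs. Of the 41 genes chosen by name, 37 had a probe set assigned to that gene alone on the arrays, out of 12393 genes measured in all, and the brightest such probe set over all 6 arrays stood for each gene. The measured members were 18 of 19 sterol synthesis enzymes, 5 of 6 sterol regulators and carriers, 12 of 13 genes of the fatty acid arm, and 2 of 3 genes of sterol export and its nuclear receptor. The others, Acat2, Insig1, Acsl3 and Nr1h2, were not measured by a probe set of their own.

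The arrays formed 3 groups of 2, named as the labels name them. WT-mock cells came from WT B6 mice and received an empty retroviral vector. KO-mock cells came from miR-17-92f/f CD4-cre+ B6 mice, in which Cre recombinase driven from the CD4 promoter removes the floxed cluster in the T cell lineage, and received the same empty vector. KO-miR-17 cells had that genotype and received a vector overexpressing miR-17, which returns this member of the cluster alone. All groups shared the B6 background and were CD4+CD25- T cells purified by flow sorting, stimulated with anti-CD3/CD28 antibodies fixed to the plate, infected with a retrovirus, kept in RPMI medium holding 10% FBS at 7% CO2, and lysed 5 days later. The WT B6 label names neither the floxed allele nor Cre, so an effect of Cre and an effect of losing the cluster cannot be told apart. The age and number of mice are not given in the sources used here, and neither is whether the 2 biological replicates of a group came from separate animals, so p-values measure only the spread between these arrays. Transcripts of the cluster itself were not analysed here.

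Cells build cholesterol from acetyl-CoA by way of mevalonate and squalene, and they build fatty acids from the same acetyl-CoA. The transcription factors SREBP, encoded by Srebf1 and Srebf2, are held in the endoplasmic reticulum with their escort SCAP by INSIG proteins while sterols are plentiful. When sterols run short SCAP carries them to the Golgi, where they are cut, enter the nucleus and switch on both sets of enzymes. The liver X receptor (LXR) senses oxidised sterols and switches on the export pumps, so sterol synthesis and sterol export are known to be controlled in opposite ways. Dividing T cells draw on both pathways to make new membranes.

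The microRNA returned by the vector and a close relative in the deleted cluster are shown because they share the seed, bases 2 to 8, by which a microRNA pairs with its targets. The seed is in capitals. The mature sequences are those of RefSeq on build GRCm38.p6, at chr14:115043684-115043706 and chr14:115044183-115044205 on the plus strand. The labels do not say which arm of the hairpin they mean by miR-17, and the 5p arm is shown.
mmu-miR-17-5p: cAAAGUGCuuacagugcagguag
mmu-miR-20a-5p: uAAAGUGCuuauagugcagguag

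Promoters of 3 members are shown because these genes recur in the results below: Hmgcs1, the enzyme that makes hydroxymethylglutaryl-CoA, Idi1, the isomerase that makes the activated isoprene unit, and Acss2, which turns acetate into acetyl-CoA. Each runs from 250 bases before to 50 bases after the gene start in RefSeq, on build GRCm38.p6 and the plus strand. Hmgcs1 lies at chr13:119690101-119690400, Idi1 at chr13:8885356-8885655 and Acss2 at chr2:155517793-155518092. Capitals mark CCAAT, the sequence bound by NF-Y, which reads ATTGG on the opposite strand, and TCACNCCAC, a core form of the sterol regulatory element bound by SREBP.
Hmgcs1: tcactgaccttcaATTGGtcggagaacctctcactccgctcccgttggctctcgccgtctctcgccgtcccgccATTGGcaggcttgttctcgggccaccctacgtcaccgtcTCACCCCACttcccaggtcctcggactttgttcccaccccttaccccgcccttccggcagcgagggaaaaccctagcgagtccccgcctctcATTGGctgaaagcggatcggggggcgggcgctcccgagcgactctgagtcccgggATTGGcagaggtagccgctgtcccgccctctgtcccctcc
Idi1: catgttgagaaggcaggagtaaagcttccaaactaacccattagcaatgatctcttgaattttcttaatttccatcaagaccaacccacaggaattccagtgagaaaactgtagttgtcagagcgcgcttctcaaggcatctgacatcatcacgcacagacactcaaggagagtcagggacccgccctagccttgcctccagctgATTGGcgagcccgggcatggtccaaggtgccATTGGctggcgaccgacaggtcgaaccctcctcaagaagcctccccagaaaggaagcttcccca
Acss2: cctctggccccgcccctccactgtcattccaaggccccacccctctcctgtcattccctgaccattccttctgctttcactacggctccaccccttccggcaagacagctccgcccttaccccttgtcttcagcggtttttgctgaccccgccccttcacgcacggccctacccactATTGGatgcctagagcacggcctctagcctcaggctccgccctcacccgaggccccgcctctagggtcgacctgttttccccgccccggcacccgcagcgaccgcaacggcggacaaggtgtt

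Of the 37 measured members, 29 had at least 1 promoter in the table, and motifs were searched on both strands. The 15 sterol enzymes found there have 18 promoters, of which 15, or 83.3%, held CCAAT, against 37.4% of all 32851 promoters in the table. Each of the 15 enzyme genes had such a promoter. GGGCGG, the sequence bound by Sp1, was in 14 of the 18, or 77.8%, against 35.7% of all promoters. TCACNCCAC was in 1 of the 18, that of Hmgcs1, where it starts at position -137 from the gene start, against 1.2% of all promoters. In the fatty acid arm CCAAT was in 6 of 11 promoters, or 54.5%. These counts describe letters in a window and not binding.

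Values are log2 intensities, so a difference of 1 is a 2-fold change in brightness. The median probe set read 5.71 to 5.76 on the different arrays, and the lower quartile 3.99 to 4.17. All 37 members had means above the latter, with Acaca, at a mean of 4.25, the closest to it. The labelled cell type was checked on 6 measured markers of 7 for CD4 T cells (Cd4, Cd3d, Cd3e, Cd3g, Thy1 and Trat1), whose summed linear intensity was 11034 and 11653 on the WT-mock arrays, 8940 and 9229 on the KO-mock arrays, and 8806 and 9063 on the KO-miR-17 arrays. All 6 had lower means in both deficient groups than in WT-mock, and Thy1 was called lower, by 0.73 and 0.83 log2 units. For 5 of the 6 every deficient array was below both WT-mock arrays. Trat1 read 6.75 and 8.56 in WT-mock, 5.14 and 7.16 in KO-mock, and 6.12 and 8.32 in KO-miR-17, so its groups overlapped. In bulk RNA, fewer cells of a type and less RNA per cell cannot be told apart. The part of these marker differences in the results below was not tested. The summed markers of B cells, myeloid cells, dendritic cells, CD8 T cells, NK cells, adipocytes and erythroid cells each stayed between 40 and 151 on every array, and 14 of their 27 measured genes had means below the lower quartile.

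The comparison of KO-mock with WT-mock bears on the loss of the whole cluster. Of the 18 measured sterol synthesis enzymes, 16 had a higher mean without the cluster, with a median difference of 0.34 log2 units, while 45% of all genes had a higher mean and their median difference was -0.03. None of these enzymes passed an adjusted p of 0.05 in limma, fitted without the replicate number. Without adjustment 6 (Hmgcs1, Idi1, Sqle, Cyp51, Ebp and Sc5d) passed a p of 0.05 in that fit. Among all members 1 was called higher, the SREBP escort Scap, against 3.74% of all genes, and 1 was called lower, Acss2, against 2.79% of all genes. At the unadjusted threshold 12 of the 37 members were higher and 2 lower, against 12.8% and 8.76% of all genes. In the fatty acid arm 8 of 12 members had higher means, with a median difference of 0.25, and both measured export genes had lower means.

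Arrays of the KO-mock and WT-mock groups did not overlap for 14 members in the higher direction and 5 in the lower, against 25.1% and 24.8% of all genes. The 14 were Hmgcs1, Idi1, Sqle, Cyp51, Nsdhl, Ebp, Sc5d, Scap, Acly, Acaca, Fasn, Elovl1, Fads1 and Fads2. The 5 were Hsd17b7, Srebf1, Acss2, Abca1 and Abcg1.

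The comparison of KO-miR-17 with KO-mock bears on the return of miR-17 to deficient cells. No member was called by limma in either direction, and 0 of the 12393 genes were, so 0% was the background, and the lowest adjusted p of any gene was 0.428. The adjusted p of every member was 0.9995. Without adjustment 4 members were higher at a p under 0.05, namely Pmvk, Tm7sf2, Elovl6 and Acss2, and 0 were lower, against 1.91% and 2.02% of all genes. Means were higher with miR-17 for 16 of 18 sterol enzymes and 10 of 12 fatty acid genes, with median differences of 0.12 and 0.17, against 51.4% of all genes and a median of 0.00. The sterol count changed with the array left out. Over the 23 sterol enzymes, regulators and carriers 20 means were higher and 3 lower with all arrays. They were 11 and 12 without replicate 1 of KO-mock, and 12 and 11 without replicate 2 of KO-miR-17. Such a fit sets unlike replicate numbers against each other, and most sterol enzymes read higher on replicate 2 in each group. It therefore cannot show whether the count rests on a single array. Arrays did not overlap for 10 members in the higher direction (Pmvk, Sqle, Tm7sf2, Srebf1, Srebf2, Scd2, Elovl5, Elovl6, Fads1 and Acss2) and 3 in the lower (Scap, Acaca and Abca1), against 15% and 13.9% of all genes.

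The comparison of KO-miR-17 with WT-mock bears on what remained different from wild type with miR-17 returned. It shares its arrays with the other comparisons, so it is no independent check on them. Of the 37 members 5 were called higher by limma, against 4.03% of all genes: Hmgcs1, Idi1 and Sqle among the sterol enzymes, and Acly and Fads1 in the fatty acid arm. None was called lower, against 2.77% of all genes, and 1, Abca1, was lower at an unadjusted p under 0.05, against 8.6% of all genes. At that unadjusted threshold 17 members were higher, against 14.2% of all genes. Means were higher for 17 of 18 sterol enzymes and for 10 of 12 fatty acid genes, with median differences of 0.50 and 0.36, against 45.2% of all genes and a median of -0.03. Arrays did not overlap for 23 members in the higher direction, 14 of them sterol enzymes, and for 4 in the lower, against 25.9% and 24.4% of all genes.

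**Figure D1:**
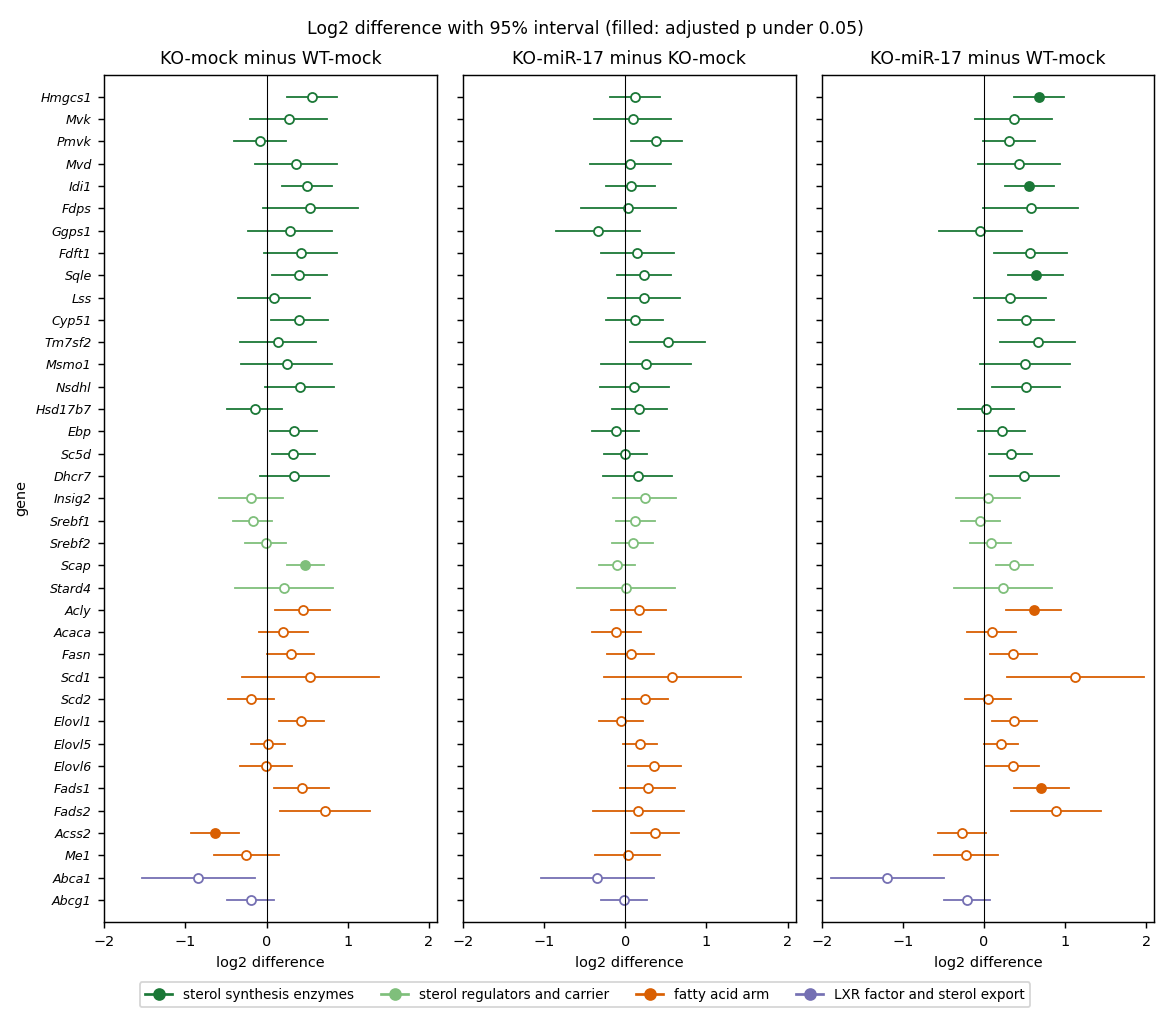
Log2 difference of each measured member, 1 row per gene, in KO-mock minus WT-mock, KO-miR-17 minus KO-mock and KO-miR-17 minus WT-mock, with its 95% interval from limma. Colours give the list a gene belongs to and filled points an adjusted p under 0.05. Filled points are Scap and Acss2 on the left, none in the middle, and Hmgcs1, Idi1, Sqle, Acly and Fads1 on the right.

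Several probe sets were available for 24 members, and 21 members had more than 1 set above the lower quartile. Among those 21, some set ran opposite to the brightest one for 6 members in KO-mock minus WT-mock, 7 in KO-miR-17 minus KO-mock and 3 in KO-miR-17 minus WT-mock. Fdft1, Ggps1, Lss, Elovl1 and Elovl5 rest on sets whose probes may match related transcripts.

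The early steps of sterol synthesis turn acetyl units into isoprene units. Hmgcs1 read 9.94 and 10.29 on the WT-mock arrays, 10.57 and 10.77 on the KO-mock arrays, and 10.71 and 10.89 on the KO-miR-17 arrays. Every deficient array lay above both WT-mock arrays, while the deficient groups overlapped each other. It was 0.56 ± 0.13 (SE) higher in KO-mock than in WT-mock, with an adjusted p of 0.0509 that just missed the threshold. The difference between KO-miR-17 and WT-mock was 0.68 ± 0.13, or 1.60-fold, at an adjusted p of 0.0284 in limma. The 3 other Hmgcs1 probe sets gave differences of 0.37, 0.43 and 0.50 between KO-mock and WT-mock, all in the same direction as the brightest set.

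Idi1, which interconverts the activated isoprene units, read 9.18 and 9.47 in WT-mock, 9.71 and 9.93 in KO-mock, and 9.78 and 9.98 in KO-miR-17. All arrays of the deficient groups were again above both WT-mock arrays. Its difference from WT-mock was 0.50 ± 0.13 in KO-mock (adjusted p = 0.0699, limma) and 0.56 ± 0.13 in KO-miR-17, which was 1.47-fold at an adjusted p of 0.0481. A second Idi1 probe set gave 0.50 and 0.57 for those comparisons.

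The kinases and the decarboxylase between these steps were less alike. Pmvk, phosphomevalonate kinase, read 7.93 and 8.20 in WT-mock, 7.88 and 8.10 in KO-mock, and 8.29 and 8.46 in KO-miR-17. The mock groups overlapped, and both miR-17 arrays were above every mock array. Its KO-mock mean was 0.08 below the WT-mock mean (95% interval -0.40 to 0.24), and its KO-miR-17 mean was 0.38 ± 0.14 above the KO-mock mean, at an unadjusted p of 0.0247 in limma. Mvk, mevalonate kinase, differed between KO-mock and WT-mock by 0.27 (95% interval -0.20 to 0.75), and Mvd, the decarboxylase, by 0.37 (95% interval -0.14 to 0.87), neither called.

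Fdps joins isoprene units into farnesyl diphosphate, where sterols part from the lipids that anchor proteins in membranes. Its values were 9.67 and 10.29 in WT-mock, 10.24 and 10.80 in KO-mock, and 10.34 and 10.78 in KO-miR-17. The mock groups overlapped, with the arrays of each group about as far apart as the group means, and the differences from WT-mock of 0.54 and 0.57 were not called. Ggps1, which extends farnesyl diphosphate for protein anchoring and leads away from sterols, read 6.59 and 6.92 in WT-mock, 6.81 and 7.28 in KO-mock, and 6.47 and 6.95 in KO-miR-17. All 3 Ggps1 groups overlapped, and the KO-miR-17 mean was 0.34 below the KO-mock mean (95% interval -0.85 to 0.18). The 4 Ggps1 probe sets did not share a direction in any of the 3 comparisons.

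Squalene is made by Fdft1 and oxidised by Sqle, after which Lss closes the ring. Sqle read 8.59 and 8.95 in WT-mock, 9.06 and 9.28 in KO-mock, and 9.31 and 9.50 in KO-miR-17. The 3 groups did not overlap, with WT-mock lowest and KO-miR-17 highest. Its KO-miR-17 mean was 0.63 ± 0.14 above WT-mock, or 1.55-fold, at an adjusted p of 0.0436 in limma, and its KO-mock mean was 0.40 ± 0.14 above it without passing (adjusted p = 0.152). Fdft1 was 0.42 higher in KO-mock than WT-mock and 0.57 higher in KO-miR-17, uncalled in each. Lss had a brightest probe set 0.09 higher in KO-mock than in WT-mock and a dimmer one 0.62 lower, so its probe sets disagreed against WT-mock. All 3 Lss sets had higher means in KO-miR-17 than in KO-mock, by 0.23, 0.59 and 0.32 from the brightest to the dimmest, and the brightest was not called there.

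The steps from lanosterol to cholesterol remove methyl groups and move or reduce double bonds. Cyp51, which starts the removal of methyl groups, read 8.45 and 8.65 in WT-mock, 8.76 and 9.15 in KO-mock, and 8.97 and 9.16 in KO-miR-17. Both deficient groups lay above both WT-mock arrays, with mean differences of 0.40 ± 0.15 and 0.52 ± 0.15 that were not called (adjusted p = 0.166 and 0.0864, limma). Its 2 other probe sets gave 0.28 and 0.38 for KO-mock minus WT-mock.

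Sc5d, the lathosterol desaturase, read 8.76 and 8.98 in WT-mock, 9.10 and 9.29 in KO-mock, and 9.16 and 9.24 in KO-miR-17. The deficient groups were both above WT-mock, by 0.33 each, and differed from one another by 0.00 (95% interval -0.27 to 0.27). Tm7sf2, a sterol reductase, read 6.17 and 6.44 in WT-mock, 6.21 and 6.67 in KO-mock, and 6.79 and 7.13 in KO-miR-17. Its mock groups overlapped and both miR-17 arrays stood above them, 0.52 ± 0.20 above the KO-mock mean at an unadjusted p of 0.033 and 0.66 ± 0.20 above the WT-mock mean at an adjusted p of 0.0968.

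The other late enzymes were not called in any comparison. Nsdhl and Hsd17b7 act together in removing methyl groups, and their KO-mock minus WT-mock differences were 0.41 and -0.15. Msmo1, the oxidase of the same step, gave 0.25, Ebp, the isomerase, 0.34, and Dhcr7, the last reductase, 0.34. In KO-miR-17 minus WT-mock these 5 genes gave 0.52, 0.02, 0.50, 0.21 and 0.49 in the same order. Hsd17b7 was thus the late enzyme whose mean stayed nearest to WT-mock in the miR-17 group, with a 95% interval of -0.32 to 0.37.

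**Figure D2:**
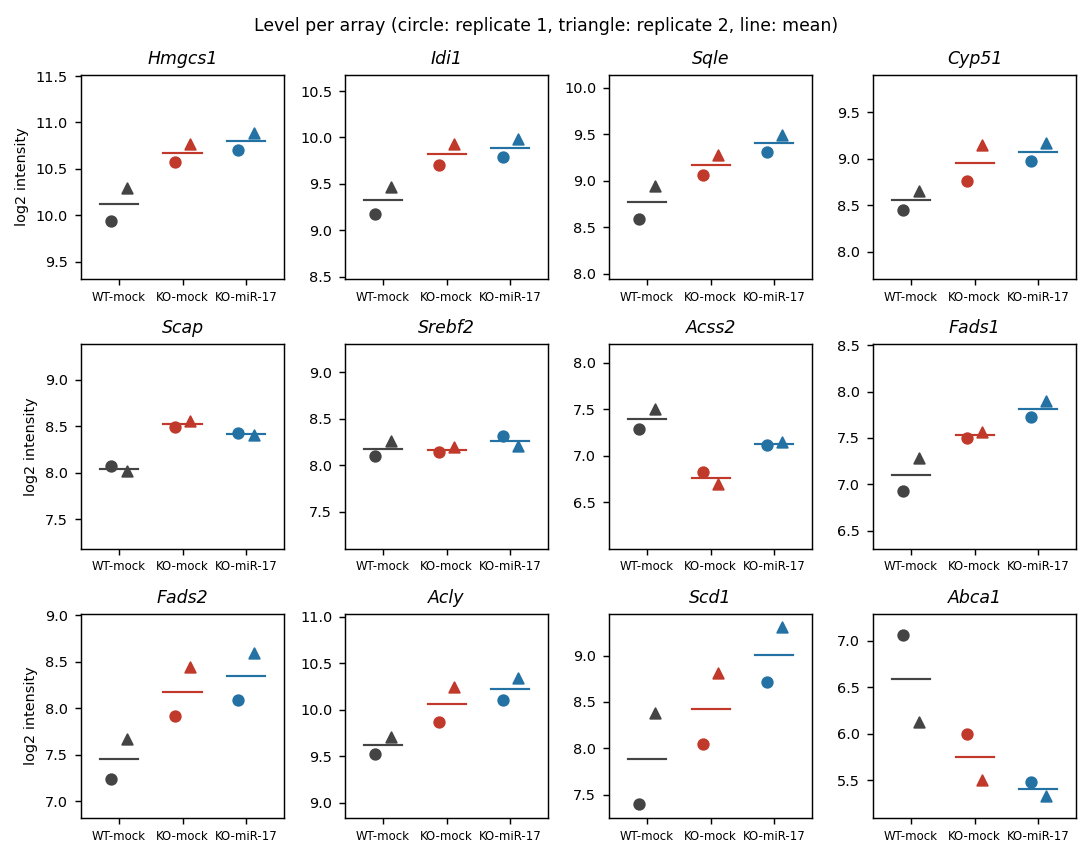
Log2 intensity on each array for 12 members, with circles for replicate 1, triangles for replicate 2 and a line at the group mean; each panel has its own range on the vertical axis, which does not start at 0. Hmgcs1, Idi1 and Sqle lie above WT-mock in both deficient groups, Scap does so with arrays close together, Acss2 lies below WT-mock, and Abca1 runs from 7.06 in WT-mock down to 5.33 in KO-miR-17.

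Among the regulators, Scap read 8.07 and 8.02 in WT-mock, 8.49 and 8.55 in KO-mock, and 8.43 and 8.41 in KO-miR-17. The arrays of each group were 0.06 apart or less, and both deficient groups were above WT-mock. Scap was 0.48 ± 0.10 higher in KO-mock than in WT-mock, a 1.39-fold difference with an adjusted p of 0.0305 in limma. In KO-miR-17 it was 0.37 ± 0.10 above WT-mock, which was not called (adjusted p = 0.0617), and 0.11 below KO-mock (95% interval -0.33 to 0.12).

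The factors that Scap escorts were not called in any comparison. Srebf2, whose product mainly drives sterol enzymes, read 8.09 and 8.26 in WT-mock, 8.14 and 8.19 in KO-mock, and 8.31 and 8.20 in KO-miR-17. Its mock groups overlapped, and the KO-mock minus WT-mock difference was -0.01 (95% interval -0.26 to 0.24). A second, nearly as bright Srebf2 probe set (mean 7.98 against 8.20) had all 4 deficient arrays above both WT-mock arrays, by 0.26 in KO-mock and 0.22 in KO-miR-17, so the sets did not share a direction between the mock groups. Srebf1, whose product mainly drives fatty acid enzymes, read 8.36 and 8.51 in WT-mock, 8.23 and 8.30 in KO-mock, and 8.36 and 8.42 in KO-miR-17. Both KO-mock arrays were the lowest, by a mean of 0.17 against WT-mock (95% interval of the difference -0.41 to 0.07). Insig2, which holds SCAP back, differed by -0.19 (95% interval -0.58 to 0.20), and Stard4, a carrier of cholesterol in the cytosol, by 0.22 (95% interval -0.38 to 0.82).

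Acetyl-CoA for fatty acid synthesis comes from citrate through Acly and from acetate through Acss2. Acly read 9.52 and 9.71 in WT-mock, 9.87 and 10.25 in KO-mock, and 10.10 and 10.35 in KO-miR-17. Every deficient array was above both WT-mock arrays, and the deficient groups overlapped. Acly was 0.61 ± 0.15 higher in KO-miR-17 than in WT-mock, or 1.53-fold, at an adjusted p of 0.0499 in limma that barely passed, and 0.45 ± 0.15 higher in KO-mock, which did not (adjusted p = 0.123).

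Acss2 read 7.29 and 7.51 in WT-mock, 6.82 and 6.70 in KO-mock, and 7.12 and 7.14 in KO-miR-17. On this brightest set the 3 groups did not overlap, and the miR-17 group lay between the mock groups. KO-mock was 0.64 ± 0.13 below WT-mock, a 1.56-fold difference with an adjusted p of 0.0302 in limma. The second Acss2 probe set gave -0.68. On that second set WT-mock read 6.88 and 7.51 and KO-miR-17 6.79 and 7.03, so these groups overlapped there. With miR-17 the mean of the brightest set was 0.37 ± 0.13 above KO-mock at an unadjusted p of 0.0215 in limma. It was 0.27 below WT-mock (95% interval of the difference -0.57 to 0.03), and neither difference was called. By their means, Acly and Acss2 lay on opposite sides of WT-mock in both deficient groups.

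Fatty acids are built by Acaca and Fasn and lengthened by the Elovl enzymes. Fasn differed between KO-mock and WT-mock by 0.30 and Acaca by 0.21, and the latter rests on a dim probe set. Elovl1 read 8.62 and 8.72 in WT-mock, 9.002 and 9.20 in KO-mock, and 8.93 and 9.16 in KO-miR-17. All deficient arrays were above WT-mock, by 0.43 ± 0.12 in KO-mock (adjusted p = 0.0777, limma) and 0.38 ± 0.12 in KO-miR-17 (adjusted p = 0.107).

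Elovl6, which lengthens palmitate and stands on the brighter of its 2 probe sets, read 8.15 and 8.06 in WT-mock, 7.92 and 8.28 in KO-mock, and 8.39 and 8.53 in KO-miR-17. The mock groups overlapped and both miR-17 arrays were above them, 0.36 ± 0.14 over KO-mock at an unadjusted p of 0.0339. Between the mock groups its probe sets gave -0.01 and 0.27. Elovl5, which acts on polyunsaturated chains, read 11.08 and 11.22 in WT-mock, 11.25 and 11.08 in KO-mock, and 11.40 and 11.31 in KO-miR-17. Here too the miR-17 arrays were the highest, by 0.19 over KO-mock (95% interval -0.02 to 0.39).

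Double bonds are placed by the stearoyl-CoA desaturases Scd1 and Scd2 and, in polyunsaturated chains, by Fads1 and Fads2. Fads1 read 6.93 and 7.28 in WT-mock, 7.50 and 7.57 in KO-mock, and 7.73 and 7.89 in KO-miR-17. The groups did not overlap, with WT-mock lowest and KO-miR-17 highest. Fads1 was 0.71 ± 0.15 higher in KO-miR-17 than in WT-mock, or 1.63-fold, at an adjusted p of 0.033 in limma, and 0.43 ± 0.15 higher in KO-mock, which was not called (adjusted p = 0.135).

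Fads2 read 7.24 and 7.67 in WT-mock, 7.91 and 8.45 in KO-mock, and 8.09 and 8.60 in KO-miR-17. Both deficient groups were above WT-mock, by 0.72 ± 0.24 and 0.89 ± 0.24, larger differences than those of the called members but with arrays further apart (adjusted p = 0.126 and 0.0704, limma). Scd1 had the widest spread, at 7.40 and 8.38 in WT-mock, 8.04 and 8.81 in KO-mock, and 8.71 and 9.30 in KO-miR-17. The mock groups of Scd1 overlapped, and its KO-miR-17 mean was 1.12 ± 0.36 above WT-mock without being called (adjusted p = 0.114). Scd2 read 11.56 and 11.88 in WT-mock, 11.44 and 11.61 in KO-mock, and 11.68 and 11.86 in KO-miR-17, with the KO-mock mean 0.20 below WT-mock. Me1, which supplies the reducing power for synthesis, had a KO-mock minus WT-mock difference of -0.25 (95% interval -0.65 to 0.15).

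The export pumps are targets of LXR. Abca1, which loads cholesterol onto apolipoproteins, read 7.06 and 6.13 in WT-mock, 5.998 and 5.50 in KO-mock, and 5.48 and 5.33 in KO-miR-17. The 3 groups did not overlap, with WT-mock highest, but the WT-mock arrays alone were 0.93 apart. Its KO-mock mean was 0.84 ± 0.30 below WT-mock (adjusted p = 0.149, limma) and its KO-miR-17 mean 1.19 ± 0.30 below (adjusted p = 0.057), neither called. The size rests on which WT-mock array is kept. Without replicate 1 of WT-mock the differences were -0.38 and -0.73 (adjusted p = 0.585 and 0.234, limma), and without replicate 2 they were -1.31 and -1.66 (adjusted p = 0.0451 and 0.0301), with the lone WT-mock array assumed in each fit to vary like the other groups. Abcg1, which passes sterols to lipoproteins, read 7.71 and 7.64 in WT-mock, 7.60 and 7.37 in KO-mock, and 7.51 and 7.42 in KO-miR-17. Both deficient groups lay below WT-mock, by means of 0.20 and 0.21 that were not called.

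The arrays of a group also differed from each other in a way that most sterol enzymes shared. In KO-mock and in KO-miR-17 the array labelled replicate 2 read above that labelled replicate 1 for 18 of 18 sterol enzymes, by medians of 0.38 and 0.27, and in WT-mock for 17 of 18, by a median of 0.33. Hsd17b7 in WT-mock was the exception. The share that read higher on replicate 2 in all 3 groups was 17 of 18 sterol enzymes and 6 of 12 fatty acid genes, against 25.6% of all genes. Abca1 and Abcg1 read lower on replicate 2 in all 3 groups. These replicate differences were close in size to the median difference of 0.34 between KO-mock and WT-mock. Each group held 1 array of each number, so a replicate difference shared by the groups enters both group means alike. It also enters the spread between the arrays of a group, which the fit without the replicate number counts as error. Calls with the replicate number in the fit are given in the last section.

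The controls spiked in as polyadenylated RNA also read lower on replicate 2 in each group, at means of 6.50 against 6.72 in WT-mock, 6.02 against 6.33 in KO-mock and 6.02 against 6.36 in KO-miR-17. So did the hybridization controls, added to the labelled sample. In the same order they read 9.62 against 10.003, 9.48 against 9.74 and 9.26 against 9.72. The mean of the 29 control sets left over after sorting by name also fell, at 8.02 against 8.19, 7.78 against 7.95 and 7.78 against 8.02. This remainder may hold further spiked controls under other names, so it is not a separate kind. All these control means were also lower in both deficient groups than in WT-mock. The Actin and Gapdh control sets, 3 of each, went the other way and read higher on replicate 2 in each group. Actin means were 13.23 against 13.18, 13.35 against 13.30 and 13.39 against 13.20 in the same order. Those of Gapdh were 13.15 against 13.05, 13.14 against 12.97 and 13.15 against 13.03. The 3' set minus the 5' set was lower on replicate 2 in each group for both genes. For Actin it was 0.303 against 0.451, 0.301 against 0.352 and 0.231 against 0.47 in the same order. For Gapdh it was -0.135 against -0.025, -0.091 against -0.059 and -0.142 against 0.029. The part of all these controls in the replicate differences and the group differences of the members was not tested.

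**Figure D3:**
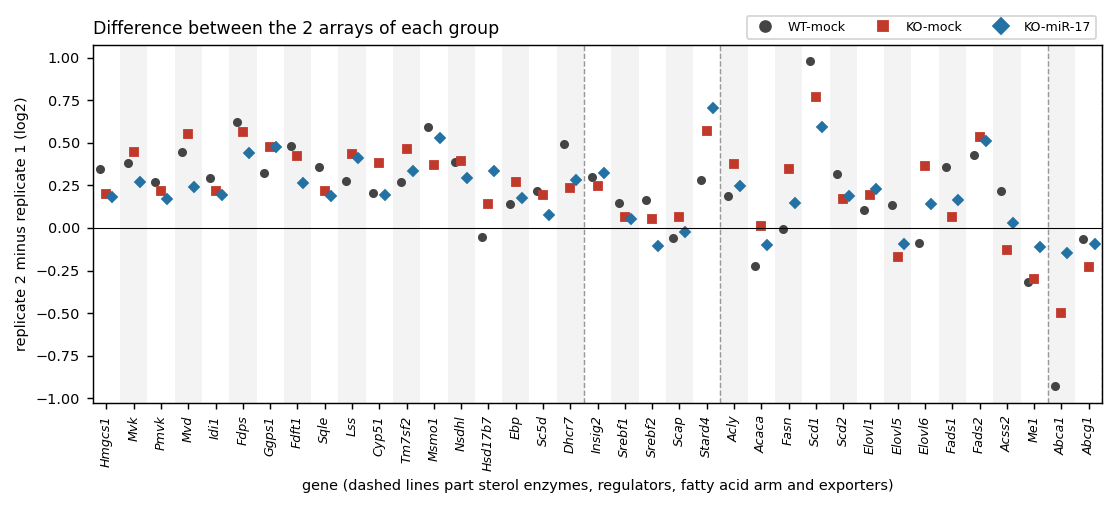
Replicate 2 minus replicate 1 in log2 units for each measured member, with a circle for WT-mock, a square for KO-mock and a diamond for KO-miR-17. Among the sterol enzymes on the left the points lie above 0 except Hsd17b7 in WT-mock, and those of Abca1 and Abcg1 on the right lie below 0.

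Each call was recomputed with 1 array of its comparison left out, and no direction turned. Such a fit leaves 1 group with a single array, which is assumed to vary like the other groups, so a call made there has no replicate check in that group. In KO-mock minus WT-mock the calls of Scap and Acss2 were lost in 4 of 4 such fits, with differences of 0.45 to 0.51 and of -0.75 to -0.53. Scap also lost its call when either KO-miR-17 array left the shared fit. Hmgcs1, uncalled there on all arrays, was called without replicate 2 of WT-mock, at 0.73 (adjusted p = 0.0422), and was at 0.38 without replicate 1 of WT-mock (adjusted p = 0.234). In KO-miR-17 minus WT-mock Hmgcs1 kept its call in 2 of 4 (without replicate 2 of WT-mock and without replicate 1 of KO-miR-17). Idi1, Sqle and Fads1 each kept it in 1 of 4, without replicate 2 of WT-mock, and Acly in 0 of 4. The differences stayed between 0.51 and 0.85 for Hmgcs1, 0.41 and 0.71 for Idi1, 0.46 and 0.81 for Sqle, 0.53 and 0.89 for Fads1, and 0.49 and 0.73 for Acly. Over the 23 sterol enzymes, regulators and carriers the median KO-mock minus WT-mock difference was 0.33, and it was 0.090 without replicate 2 of KO-mock, 0.13 without replicate 1 of WT-mock, 0.45 without replicate 2 of WT-mock and 0.50 without replicate 1 of KO-mock. In KO-miR-17 minus KO-mock the same median was 0.11. It was -0.05 and 0.31 without replicate 1 or 2 of KO-mock, and 0.25 and 0.01 without replicate 1 or 2 of KO-miR-17. In each of these fits the groups held unlike replicate numbers, so the replicate difference shared by the sterol enzymes enters the median. In KO-miR-17 minus WT-mock the same median was 0.37, and 0.21 without replicate 1 of WT-mock. For the fatty acid arm the median of 0.25 in KO-mock minus WT-mock was 0.14 without replicate 2 of KO-mock and 0.15 without replicate 1 of WT-mock, and that of 0.17 in KO-miR-17 minus KO-mock was 0.31 without replicate 2 of KO-mock or replicate 1 of KO-miR-17.

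Over all genes the 810 calls of KO-mock minus WT-mock became 101 and 365 without replicate 1 or 2 of WT-mock, and 277 and 95 without replicate 1 or 2 of KO-mock. The 843 calls of KO-miR-17 minus WT-mock became 105 and 448 without replicate 1 or 2 of WT-mock, and 473 and 74 without replicate 1 or 2 of KO-miR-17.

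**Figure D4:**
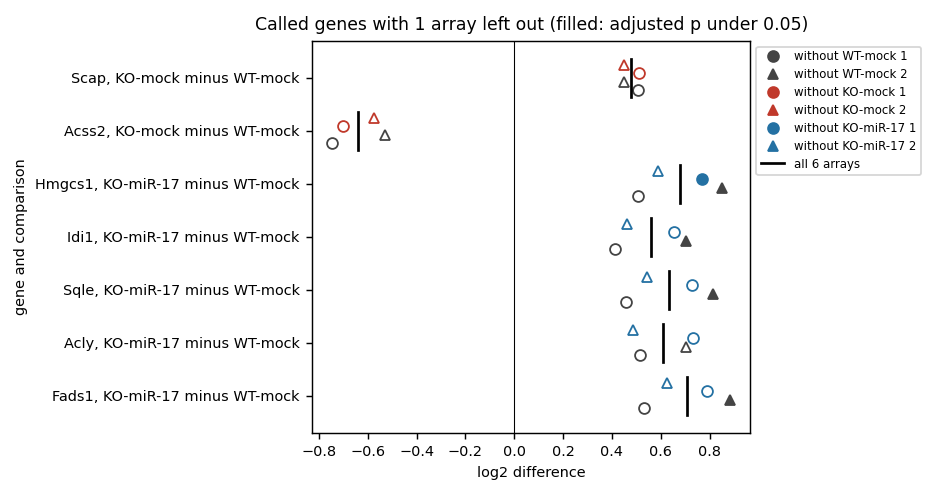
Log2 difference of the 7 called members with each array of their comparison left out in turn, coloured by the group of the array left out, with a black bar for the fit on all 6 arrays and filled symbols for an adjusted p under 0.05. Differences keep their side of 0 throughout, and 5 symbols are filled, 4 of them without WT-mock replicate 2.

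Other genes around the pathway were counted in lists of their own. Of 6 measured genes that process or turn over SREBP, 0 were called by limma in any comparison. At an unadjusted p under 0.05 they had 0 in KO-mock minus WT-mock and 0 in KO-miR-17 minus KO-mock. In KO-miR-17 minus WT-mock 1 was higher and 1 lower. The shares called over all genes were 3.74% higher and 2.79% lower in KO-mock minus WT-mock, and 4.03% and 2.77% in KO-miR-17 minus WT-mock. Unadjusted, these shares were 12.8% and 8.76%, and 14.2% and 8.6%. Between KO-miR-17 and KO-mock 0% were called, and 1.91% and 2.02% passed unadjusted. Mbtps1, the Golgi protease that makes the first cut, had a KO-mock minus WT-mock difference of -0.04. It read 8.03 and 8.12 in WT-mock, 8.04 and 8.02 in KO-mock, and 7.83 and 7.79 in KO-miR-17. Both miR-17 arrays were thus below every mock array. Its KO-miR-17 mean differed by -0.26 from WT-mock and -0.22 from KO-mock, the lowest differences of this list, and was not called. Of 13 genes of late sterol steps, esterification and transport, Npc2, which carries cholesterol out of lysosomes, was called lower in both comparisons with WT-mock. At an unadjusted p this list had 0 higher and 2 lower in KO-mock minus WT-mock, and 3 higher and 1 lower in KO-miR-17 minus WT-mock. In KO-miR-17 minus KO-mock it had 0 higher and 1 lower. Npc2 read 12.58 and 12.34 in WT-mock, 11.96 and 11.86 in KO-mock, and 11.91 and 11.66 in KO-miR-17. Every deficient array was below both WT-mock arrays, by 0.55 ± 0.11 in KO-mock (adjusted p = 0.0299, limma) and 0.67 ± 0.11 in KO-miR-17 (adjusted p = 0.0178). Nr1h3, an LXR gene, had a KO-mock minus WT-mock difference of -0.08 (95% interval -0.38 to 0.21).

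Among 22 genes of fatty acid activation, elongation and glycerolipid synthesis, 3 were called higher and 1 lower in KO-mock than in WT-mock, and 1 higher in KO-miR-17 than in WT-mock. Over all genes 3.74% were called higher and 2.79% lower in the former comparison, and 4.03% higher in the latter. Acsl4 and Acsl5, which attach coenzyme A to fatty acids, were 1.06 ± 0.18 and 0.53 ± 0.08 higher in KO-mock (adjusted p = 0.0202 and 0.0148, limma). Acsl4 read 7.92 and 8.45 in WT-mock, 9.27 and 9.21 in KO-mock, and 8.71 and 8.96 in KO-miR-17, so the miR-17 group lay between the mock groups. Agpat3, an acyltransferase of phospholipid synthesis, was 0.56 ± 0.10 higher, and Lpin1, a phosphatidate phosphatase, 0.55 ± 0.12 lower in KO-mock (adjusted p = 0.0255 and 0.0371, limma). In KO-miR-17 against WT-mock the call was Acsl5, at 0.46 ± 0.08.

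Of 12 genes of fatty acid oxidation 0 were called in KO-mock against WT-mock (1 higher and 2 lower at an unadjusted p in limma), against 3.74% called higher and 2.79% called lower over all genes and 12.8% and 8.76% at the unadjusted threshold. In KO-miR-17 against WT-mock Decr1, a reductase that handles unsaturated chains, was 0.79 ± 0.18 higher and Hadhb, a subunit of the trifunctional protein, 0.42 ± 0.09 lower (adjusted p = 0.0452 and 0.0333, limma). Of 8 genes that use isoprenoids, 1 was called in that comparison. This was Rabggtb, a subunit of the enzyme that anchors Rab proteins, at 0.64 ± 0.15 higher (adjusted p = 0.0466, limma). The shares of all genes called there were 4.03% higher and 2.77% lower. Decr1 read 7.26 and 7.63 in WT-mock, 7.90 and 8.23 in KO-mock, and 8.06 and 8.40 in KO-miR-17, with every deficient array above both WT-mock arrays. Of the 61 genes in these lists beyond the members, 0 were called by limma between KO-miR-17 and KO-mock, as were 0% of all genes. At an unadjusted p 2 were higher and 3 lower, against 1.91% and 2.02% of all genes. With 1 array of the comparison left out, the calls in KO-mock minus WT-mock held in 2 of 4 fits for Acsl5, in 1 of 4 for Acsl4, Agpat3 and Npc2, and in 0 of 4 for Lpin1. Those in KO-miR-17 minus WT-mock held in 2 of 4 for Npc2, in 1 of 4 for Acsl5 and Rabggtb, and in 0 of 4 for Decr1 and Hadhb.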

How the data were processed

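Each of the 6 one-colour arrays held 1 biotin-labelled RNA sample, in 3 groups of 2. The authors deposited log2 intensities. Per the submitters' processing notes the method was RMA, with no version given. RMA subtracts background, equalises the arrays by quantile normalization and summarises each probe set, so a shift shared by most genes would not be seen. The log2 scale was taken from that method and the range of the values.

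Of 22690 probe sets, 20380 had a single gene symbol in the platform annotation, and 4956 genes had several sets. The named genes were all measured members, with full values for called members and for the 4 smallest p-values per arm in the first 2 comparisons, and the called genes of the other lists. A few further members (Cyp51, Fdps, Srebf1, Srebf2, Scd1) and the examples Mbtps1 and Nr1h3 were given after their values were seen. The members and lists were chosen with earlier results of these data known.

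All 6 arrays were fitted together across all 12393 genes with limma 3.58.1 under R 4.3.3, using lmFit, contrasts.fit and eBayes with a trend, with 3 residual and 4.69 prior degrees of freedom. P-values were adjusted by Benjamini-Hochberg within each comparison, and genes were called at an adjusted p under 0.05. No filter on low values was set. Probe sets below the lower quartile on average were left out when sets of a gene were compared. Alternatives were a replicate block, the mean of probe sets, dim genes left out, median centring, a repeated quantile normalization, no trend, robust estimation, fits of each pair of groups alone, and each array left out. Figures were drawn with matplotlib 3.10.9.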

Additional observations from a re-analysis of the deposited data

How the results depend on the processing

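Replicate numbers in the labels are shared by the groups but no batch is stated, so they were not used as pairs. The deviations of same-numbered arrays from their group means correlated across all genes at r = 0.43, 0.51 and 0.63. Across the 37 members they correlated at r = 0.76, 0.69 and 0.85 in the same order. With the replicate block the calls over all genes became 2723 in KO-mock minus WT-mock, 38 in KO-miR-17 minus KO-mock and 2983 in KO-miR-17 minus WT-mock. In the first and last of these, calls among the 23 sterol members became 12 and 16, among the 12 fatty acid members 7 and 6, and among the 2 export genes 1 and 1. In KO-mock minus WT-mock 810 of 12393 genes were called on the chosen setting, and 1007 of 6197 with dim genes left out. Calls over all genes were 1147 with median centring, 832 with robust estimation, 696 with pairs fitted alone and 594 with the mean of probe sets. The sterol calls there, 1 on the chosen setting, were 2 with dim genes left out and 3 with median centring. They were 2 with robust estimation and 0 with pairs of groups fitted alone. The fatty acid calls, 1, were 0 with the mean of probe sets and 2 with median centring. In KO-miR-17 minus WT-mock the calls over all genes, 843, were 613 with the mean of probe sets and 508 without trend. They were 680 with pairs fitted alone and 1054 with median centring. The sterol calls there, 3, were 0 with the mean of probe sets, 0 without trend and 1 with pairs fitted alone. The fatty acid calls, 2, were 1 under each of these. The export calls were 1 with median centring. By gene, repeated quantile normalization and pairs fitted alone ended the call of Scap, the mean of probe sets that of Acss2, and pairs fitted alone that of Fads1. The mean of probe sets and no trend ended those of Hmgcs1, Acly, Idi1 and Sqle, and pairs fitted alone also those of Idi1 and Sqle. In the other lists, the mean of probe sets and no trend ended the calls of Decr1, Hadhb and Rabggtb. Pairs fitted alone ended those of Hadhb and Lpin1. No trend also ended those of Lpin1, of Npc2 in KO-mock minus WT-mock and of Acsl5 in KO-miR-17 minus WT-mock. Sqle and Rabggtb have 1 probe set each, so averaging left their own values unchanged. With each array left out, KO-mock minus WT-mock gave 95 to 693 calls over all genes, 0 to 1 sterol, 0 to 1 fatty acid and 0 to 1 export calls, and a sterol median of 0.090 to 0.50. KO-miR-17 minus WT-mock gave 74 to 697, 0 to 3, 0 to 2 and 0 to 1. The causes were not tested. No summary result changed sign in a called value. With 2 arrays per group, the members' differences had their largest standard errors in Scd1 (0.36) and Abca1 (0.30).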
